A study of Mus musculus with 6 samples.

Results

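Acyl-CoA thioesterases are enzymes that split fatty acyl-CoA, the activated form of a fatty acid, into the free acid and coenzyme A. Their mouse genes carry the symbol Acot. The 9 members described here are Acot1, Acot2, Acot3, Acot4, Acot7, Acot8, Acot9, Acot12 and Acot13, taken as every probe set annotated to exactly 1 of these genes. They are read by 11 of the 22626 probe sets that are not array controls, and they are 9 of the 12393 genes with such a probe set. The family was chosen by the differences between transgenic and wild-type arrays of this same experiment. The differences of its members are therefore a description, and no p-value is given for them.

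The arrays held liver RNA from 3 transgenic mice and 3 wild-type mice, all at postnatal day 9, which the labels call biological replicates. The transgenic mice carried a conditional Tcfeb allele and expressed Cre from the albumin promoter (Alb-Cre), which is active in hepatocytes, and per the labels overexpressed the transcription factor TFEB in liver. The construct is not described in the labels, nor are the alleles of the wild-type mice beyond that name. The comparison asks how liver expression differs when TFEB is overexpressed. All levels below are log2 expression values as deposited, given as mean ± SD with n = 3 arrays a group. All differences are transgenic minus wild type on the log2 scale, with the standard error (SE) of a limma fit over all 22626 probe sets.

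The thioesterases fall into a pair of unrelated protein families with a shared reaction. Acot1 to Acot6 are type I enzymes and are close relatives whose products differ in where they lie in the cell, whereas Acot7 to Acot13 are type II enzymes of the hotdog fold. By removing or releasing acyl-CoA in cytosol, mitochondria and peroxisomes, they set how much fatty acid is free and how much coenzyme A is available. In mouse liver several type I genes are known targets of PPAR-alpha, the nuclear receptor that responds to fatty acids in fasting.

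Acot1 and Acot2 lie next to each other and read higher in transgenic liver, whereas the next genes along the chromosome, Acot4 and Acot3, read lower. Their promoter windows are shown because these neighbours differed in direction, and that of Acot12 because it read lowest against wild type. Each window runs from 250 bases before to 50 bases after the start of the gene, from RefSeq on build GRCm38.p6, all on the plus strand. Capitals mark AGGTCA, the core letters that nuclear receptors bind, the E-box CACGTG, and pairs of AGGTCA 1 base apart (AGGTCANAGGTCA) with up to 2 mismatches, on either strand. The E-box is the core of the element that TFEB binds.
Acot2, chr12:83987611-83987910: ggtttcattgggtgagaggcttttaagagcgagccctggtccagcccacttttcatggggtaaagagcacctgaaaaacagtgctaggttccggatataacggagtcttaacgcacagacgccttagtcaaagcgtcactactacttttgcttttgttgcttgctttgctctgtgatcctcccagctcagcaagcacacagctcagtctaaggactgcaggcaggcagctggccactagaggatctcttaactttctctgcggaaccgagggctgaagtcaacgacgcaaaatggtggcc
Acot1, chr12:84009252-84009551: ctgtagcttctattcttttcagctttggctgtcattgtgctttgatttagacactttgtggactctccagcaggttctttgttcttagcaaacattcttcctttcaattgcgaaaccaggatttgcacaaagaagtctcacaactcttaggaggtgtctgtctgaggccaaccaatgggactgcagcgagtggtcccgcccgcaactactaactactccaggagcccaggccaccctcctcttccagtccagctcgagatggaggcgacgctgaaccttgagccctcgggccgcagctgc
Acot4, chr12:84038129-84038428: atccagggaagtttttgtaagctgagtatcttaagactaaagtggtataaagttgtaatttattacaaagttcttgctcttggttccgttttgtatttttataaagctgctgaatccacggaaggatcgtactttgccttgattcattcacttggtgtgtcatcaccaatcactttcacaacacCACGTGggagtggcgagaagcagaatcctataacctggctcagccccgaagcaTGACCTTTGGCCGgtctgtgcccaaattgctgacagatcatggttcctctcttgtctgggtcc
Acot3, chr12:84051894-84052193: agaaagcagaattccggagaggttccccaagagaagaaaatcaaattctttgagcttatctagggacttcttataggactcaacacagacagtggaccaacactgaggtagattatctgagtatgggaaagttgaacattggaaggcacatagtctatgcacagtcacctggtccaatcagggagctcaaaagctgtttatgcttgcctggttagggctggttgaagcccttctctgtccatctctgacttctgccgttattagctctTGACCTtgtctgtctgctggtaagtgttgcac
Acot12, chr13:91741271-91741570: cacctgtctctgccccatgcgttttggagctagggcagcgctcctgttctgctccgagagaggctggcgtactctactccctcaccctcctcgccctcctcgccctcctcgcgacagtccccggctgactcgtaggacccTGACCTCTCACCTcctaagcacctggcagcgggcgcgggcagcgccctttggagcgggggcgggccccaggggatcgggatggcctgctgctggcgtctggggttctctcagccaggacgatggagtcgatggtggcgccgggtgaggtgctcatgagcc
No capital stands in the windows of Acot2 and Acot1, so none of these letters is in them.

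Of the 9 members, 8 had a promoter window in the RefSeq table. AGGTCA was found in 3 of them, those of Acot3, Acot4 and Acot12, and 16.3% of all 32851 mouse windows hold it. In Acot4 it spans bases -13 to -8 before the start and begins a pair with 2 mismatches (3.86% of all windows hold a pair with up to 2). In Acot12 it spans bases -110 to -105 and begins a pair with 1 mismatch, which 0.554% of all windows hold at up to 1. Acot3 holds it at bases 19 to 24 after the start. The E-box CACGTG was found in Acot4 alone among the 8 windows, at bases -66 to -61, against 7.15% of all windows. The element TCAAGGTCA of the estrogen-related receptors, which contains AGGTCA, was found in none of the 8 and in 0.423% of all windows. The longest run of bases that any pair of the 8 windows shared was 10 bases. These matches describe letters in the windows. Whether they are bound was not tested, and letters outside the windows were not searched.

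On the deposited scale the family split. Of 11 probe sets, 3 read higher in transgenic liver, 5 read lower and 3 did not pass an adjusted p of 0.05 (limma with Benjamini-Hochberg adjustment). Over all probe sets, 18.1% passed as higher and 17.3% as lower. The 3 transgenic and 3 wild-type values did not overlap for 8 of the 11 member probe sets, against 50.5% of all probe sets. By gene, Acot1, Acot2 and Acot9 read higher, Acot3, Acot4 and Acot12 read lower, and Acot7, Acot8 and Acot13 did not pass. By the place where each enzyme is known to act, the 3 mitochondrial members had 2 higher and 0 lower, the 3 peroxisomal members 0 higher and 2 lower, and the 3 cytosolic members 1 in each direction. With arrays scaled to the bacterial hybridisation controls, which moved the median difference of all probe sets from -0.04 to 0.33, 6 member probe sets were higher and 3 lower, and the calls of Acot4 were lost.

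**Figure D1:**
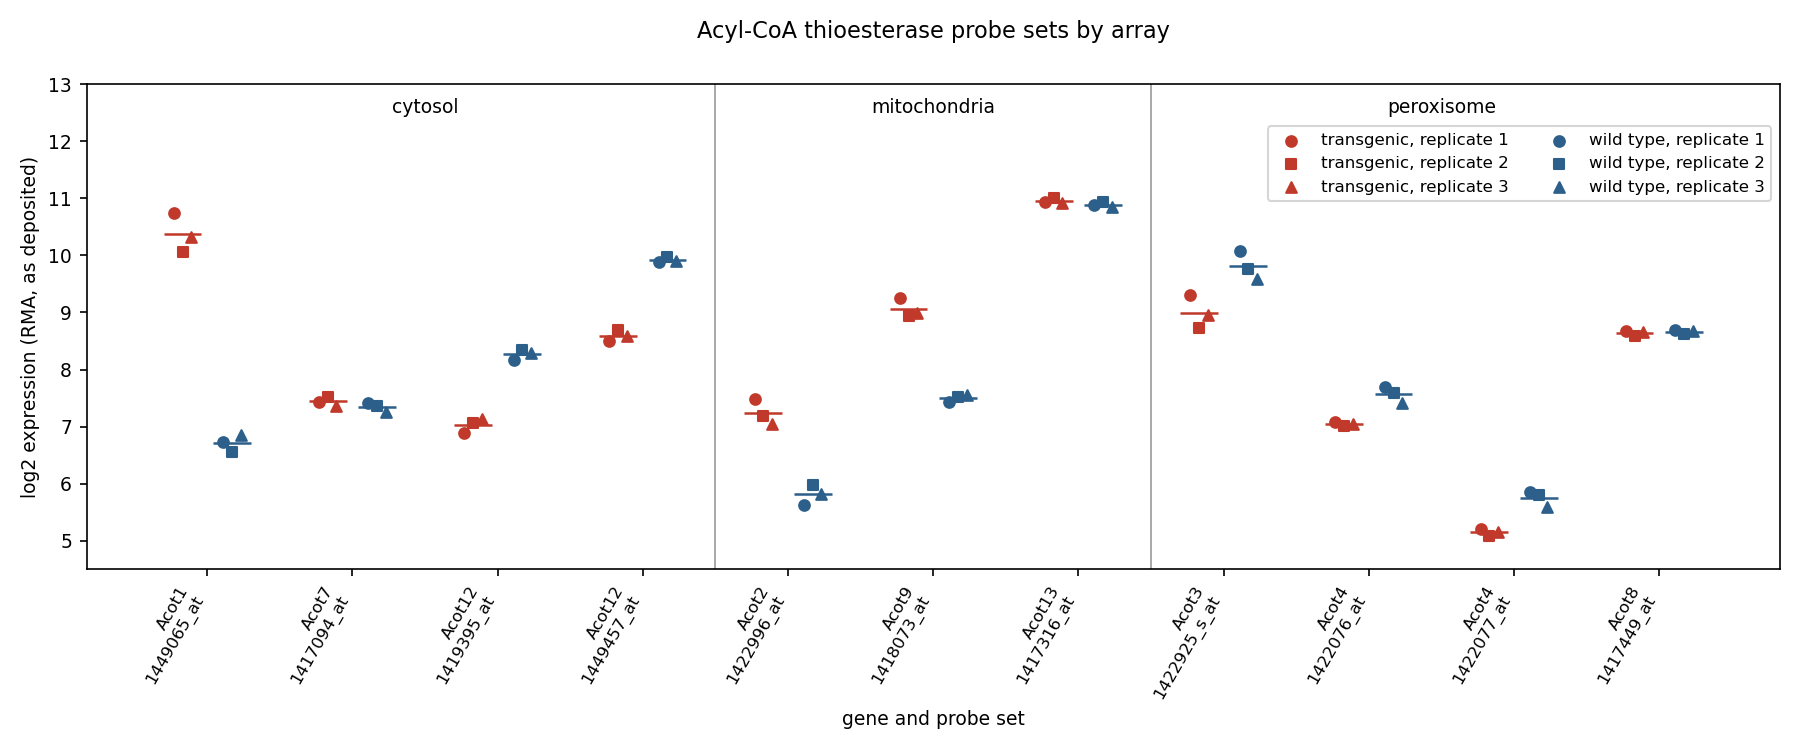
Log2 expression of the 11 member probe sets (horizontal axis, grouped by the known place of each enzyme) on each array (points; lines are group means), transgenic left of wild type. Transgenic points lie above all wild-type points for Acot1, Acot2 and Acot9 and below them for Acot3, Acot4 and Acot12; heights of different probe sets cannot be compared, since each probe set binds with its own strength.

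Among the cytosolic members, Acot1 hydrolyses long-chain acyl-CoA and is strongly induced by fasting in mouse liver. Its probe set 1449065_at read 10.74, 10.06 and 10.32 on the transgenic arrays, against 6.74, 6.56 and 6.86 on the wild-type arrays. The means were 10.37 ± 0.34 in transgenic and 6.72 ± 0.15 in wild-type liver, a difference of 3.66 (SE 0.17), or 12.6-fold. Every transgenic value exceeded every wild-type value, and the closest values of the groups lay 3.20 apart. This gap is wider than the range within either group.

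Acot12, the cytosolic acetyl-CoA hydrolase, went the other way on both of its probe sets, which share a source sequence. The brighter one, 1449457_at, read 8.50, 8.69 and 8.59 in transgenic liver, against 9.88, 9.97 and 9.90 in wild-type liver. The means were 8.59 ± 0.09 in transgenic and 9.92 ± 0.05 in wild-type liver, a difference of -1.32 (SE 0.08), so that wild-type liver read 2.50-fold higher. The second one, 1419395_at, read 6.89, 7.06 and 7.14 in transgenic liver and 8.16, 8.34 and 8.29 in wild-type liver, a difference of -1.23 (SE 0.09). The groups did not overlap on either probe set. Among the 11 member probe sets these were the lowest differences.

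Acot7, a cytosolic long-chain enzyme best known from brain, read 7.43, 7.52 and 7.37 in transgenic liver and 7.42, 7.36 and 7.25 in wild-type liver. Its groups overlapped, with a difference of 0.10 (SE 0.08). With arrays scaled to the hybridisation controls the difference was 0.47 and passed.

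Among the mitochondrial members, Acot2 is the matrix enzyme closest to Acot1. Its own probe set 1422996_at read 7.49, 7.19 and 7.05 in transgenic liver, against 5.63, 5.98 and 5.83 in wild-type liver. The means were 7.24 ± 0.22 in transgenic and 5.81 ± 0.17 in wild-type liver, a difference of 1.43 (SE 0.13), or 2.70-fold. The groups lay 1.08 apart at their closest values.

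Acot9, a type II enzyme of mitochondria whose gene lies on the X chromosome, showed a difference near that of Acot2. Probe set 1418073_at read 9.25, 8.94 and 8.99 in transgenic liver, against 7.43, 7.52 and 7.56 in wild-type liver. The means were 9.06 ± 0.16 in transgenic and 7.50 ± 0.07 in wild-type liver, a difference of 1.56 (SE 0.10), or 2.94-fold. All transgenic values lay above all wild-type values.

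Acot13, a small type II enzyme associated with mitochondria, was the brightest member by probe set signal. It read 10.93, 11.00 and 10.92 in transgenic liver and 10.88, 10.93 and 10.85 in wild-type liver, a difference of 0.06 (SE 0.07). These groups overlapped, whereas with arrays scaled to the hybridisation controls the difference was 0.43 and passed.

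The peroxisomal members read lower or level. Acot3, a type I enzyme, read 9.30, 8.72 and 8.95 in transgenic liver, against 10.07, 9.76 and 9.59 in wild-type liver. The means were 8.99 ± 0.29 in transgenic and 9.81 ± 0.24 in wild-type liver, a difference of -0.81 (SE 0.17). Acot3 had the widest scatter of the lower members, and the groups lay 0.29 apart at their closest values, less than the range within either group. Its only probe set, 1422925_s_at, has a suffix that marks possible binding of other transcripts. With arrays scaled to the hybridisation controls the Acot3 difference was -0.44 and passed only narrowly.

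Acot4, which in peroxisomes releases succinate and other dicarboxylic acids from CoA, was read by a pair of probe sets made from a shared source sequence. Probe set 1422076_at read 7.08, 7.02 and 7.04 in transgenic liver, against 7.70, 7.59 and 7.42 in wild-type liver, a difference of -0.52 (SE 0.09). Probe set 1422077_at was dimmer, with 5.20, 5.09 and 5.16 in transgenic liver and 5.86, 5.81 and 5.60 in wild-type liver, a difference of -0.60 (SE 0.09). Both sets ranked the transgenic arrays in the same order, and both ranked the wild-type arrays in the same order. With arrays scaled to the hybridisation controls these differences were -0.15 and -0.23, and neither passed.

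Acot8, a peroxisomal type II enzyme of broad chain length, read 8.68, 8.58 and 8.66 in transgenic liver and 8.69, 8.63 and 8.68 in wild-type liver. The groups overlapped, with a difference of -0.02 (SE 0.07), which had the opposite sign (0.35) with arrays scaled to the hybridisation controls.

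**Figure D2:**
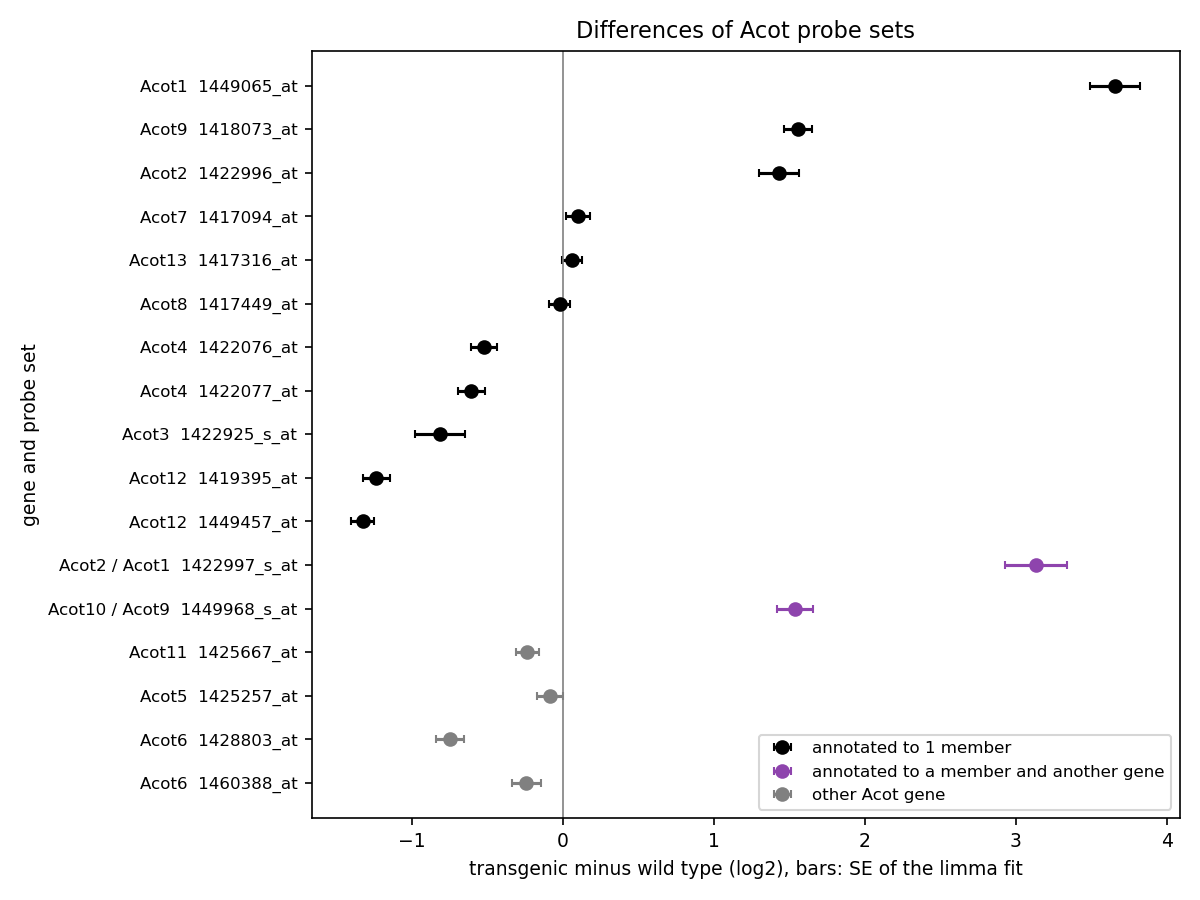
Difference between transgenic and wild-type arrays (horizontal axis, log2; bars are the SE of the limma fit) for each Acot probe set, in black for the 11 member probe sets, in purple for 2 probe sets annotated to a member and another gene, and in grey for Acot5, Acot6 and Acot11. Acot1 stands at 3.66, Acot9 and Acot2 near 1.5, and Acot12 at the low end.

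Close relatives can bind each other's probes, and this bears on Acot1 and Acot2 most. Probe set 1422997_s_at, annotated to both genes and so not counted among the members, read 10.34, 9.76 and 9.46 in transgenic liver, against 6.62, 6.64 and 6.91 in wild-type liver. Its difference of 3.13 (SE 0.20) lay between that of the Acot1 set (3.66) and that of the Acot2 set (1.43). Whether Acot1 transcripts add to the signal of the Acot2 set was not tested. Probe set 1449968_s_at, annotated to Acot10 and Acot9, read 8.84, 8.40 and 8.43 in transgenic liver, against 7.00, 7.01 and 7.06 in wild-type liver. Its difference of 1.53 (SE 0.12) was close to the 1.56 of the Acot9 set.

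The type I genes Acot2, Acot1, Acot4, Acot3, Acot5 and Acot6 follow each other in this order on chromosome 12 in RefSeq (GRCm38.p6), with no other protein-coding gene between them. Acot5 and Acot6 are not members, and their values complete the row. The first 2 genes read higher, the third and the fourth lower. Acot5 read 3.92, 3.90 and 3.80 in transgenic liver and 3.90, 3.86 and 4.11 in wild-type liver, a dim and overlapping reading with a difference of -0.08 (SE 0.09). Acot6 fell by 0.75 (SE 0.09, limma adjusted p = 0.000629) on its brighter probe set, and its second probe set read -0.24 (SE 0.10) and did not pass. The sharpest change of direction along the row was therefore between Acot1 and Acot4, which are neighbours.

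**Figure D3:**
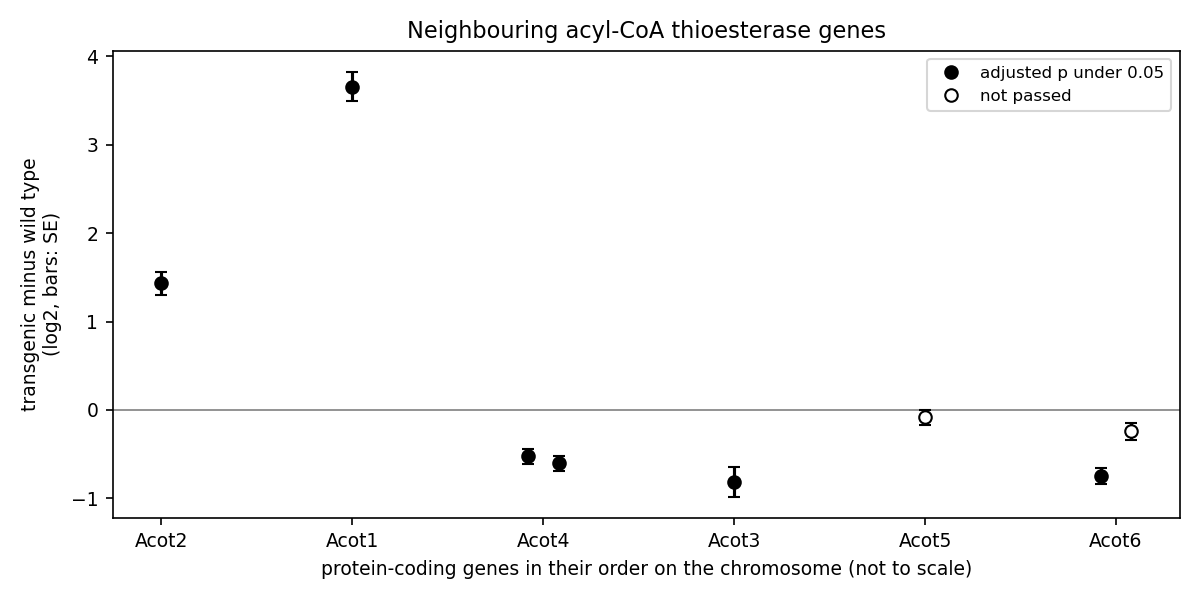
Difference between transgenic and wild-type liver (vertical axis, log2, bars are SE) for the 6 neighbouring type I genes in chromosome order, not to scale; each point is a probe set annotated to 1 gene, filled where the adjusted p is under 0.05. Acot2 and Acot1 stand above 0 and all other points below it, of which those of Acot4, Acot3 and 1 of 2 Acot6 probe sets are filled.

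One array stood apart in sex transcripts and in some of the muscle transcripts. Transgenic replicate 1 read 5.58 for Xist and 9.32 for the Y-linked gene Eif2s3y, against 13.03 to 13.19 and 3.06 to 3.43 on the other 5 arrays, a male pattern. The same array read 8.04 for the skeletal actin gene Acta1, against at most 5.17 on the others. It read 6.12 for the myosin light chain gene Myl1, against at most 3.89. Ckm read 6.14 against 5.57 to 5.81, and Tnnt3 read 4.69 against 3.76 to 4.09. Of the other muscle markers, Myh4 lay within the range of the other arrays (3.85 against 3.70 to 4.10). Mb was lowest on this array (5.13 against 5.22 to 5.83). Transgenic replicate 1 was the highest of the transgenic arrays for Acot1, Acot2, Acot3, Acot4 and Acot9. Without it the differences were 3.47 for Acot1, 1.31 for Acot2, 1.46 for Acot9, -0.97 for Acot3 and -1.28 for the brighter Acot12 set, and the family still had 3 probe sets higher and 5 lower. Adipocyte markers, relevant because Acot1 and Acot2 are also expressed in brown fat, were dim throughout: 0 of 4 passed in either direction (0 also at an unadjusted p under 0.05 with limma), and their mean level was 3.73 to 3.93 in transgenic and 3.79 to 3.95 in wild-type liver. With arrays scaled to the hybridisation controls, 3 of the 4 passed as higher.

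Other features of the arrays moved with the groups. The array medians were 6.78 to 6.79 in transgenic arrays and 6.74 to 6.76 in wild type. All 14 probe sets for the bacterial hybridisation controls read lower in every transgenic array, with a median difference of -0.37. Tfeb read 6.52, 6.61 and 6.36 in transgenic liver and 6.91, 6.63 and 6.58 in wild-type liver (difference -0.21, SE 0.11, limma adjusted p = 0.178), so its 1 probe set did not show the overexpression that the labels state. Whether this probe set lies within the transgene was not tested. The hepatocyte genes Alb and Ttr, which mark the labelled tissue, read 14.87 and 14.75 in transgenic liver, against 14.87 and 14.79 in wild-type liver. The marker counts below stand beside 19.1% higher and 19.5% lower over all 12393 genes with 1 probe set each. Of 8 hepatocyte markers 5 fell and 0 rose, with mean levels of 12.13 to 12.24 in transgenic and 13.05 to 13.09 in wild-type liver. Of 5 bile duct markers 4 rose (8.19 to 8.51 against 6.02 to 6.97), of 5 red cell precursor markers 3 rose (7.55 to 7.73 against 7.05 to 7.22), of 6 granulocyte markers 5 fell (7.95 to 8.80 against 9.59 to 10.67) and of 4 lymphoid markers 4 fell (5.36 to 5.64 against 6.13 to 6.24). Macrophage markers fell for 2 of 6 (10.58 to 10.95 against 10.91 to 11.27), endothelial for 3 of 5 (8.98 to 9.15 against 9.15 to 9.31), stellate for 2 of 5 (7.74 to 7.81 against 8.22 to 8.33) and muscle for 1 of 6 (4.52 to 5.66 against 4.67 to 4.76), where ranges are mean marker levels per array, of transgenic against wild-type liver. With arrays scaled to the hybridisation controls the falls were 4 for hepatocyte, 5 for granulocyte, 1 for lymphoid, 2 for stellate and 0 for macrophage, endothelial and muscle markers. The rises were then 4 for bile duct, 4 for red cell precursor, 2 for hepatocyte, 2 for endothelial, 2 for stellate and 1 for macrophage markers. The part of these shifts in the thioesterase values was not tested, and in whole tissue fewer cells of a type and less RNA per cell cannot be told apart.

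Genes on the list of other thioesterases, which also holds relatives such as Acnat2, fell or did not pass. Acot5, Acot6 and Acot11, which are outside the 9 members, are on it. Of 14 measured among 18 listed, 0 rose, 5 fell and 9 did not pass (limma; 1 higher and 5 lower at an unadjusted p under 0.05), with a median difference of -0.10. Over all 12393 genes with 1 probe set each, 19.1% were higher, 19.5% lower and the median was -0.04. Acnat2, a relative of the type I enzymes, read 5.81, 5.29 and 5.30 in transgenic liver, against 7.91, 8.29 and 8.12 in wild-type liver, and fell by 2.64 (SE 0.16, limma adjusted p = 2.25e-05). Lyplal1, a lysophospholipase-like enzyme, fell by 0.68 (SE 0.08), and Hibch, which hydrolyses an acyl-CoA of valine breakdown, fell by 0.38 (SE 0.09) on 1 of its 2 probe sets. Without transgenic replicate 2, 1 gene was higher, and with scaling to the hybridisation controls 6 were higher and 3 lower.

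Among the listed regulators, Ppara was lower, while the coactivator gene Ppargc1a was higher and Ppargc1b (0.12, SE 0.12) did not pass. Ppara read 9.26, 9.44 and 9.48 in transgenic liver, against 10.55, 10.51 and 10.38 in wild-type liver, and fell by 1.09 (SE 0.09, limma adjusted p = 7.3e-05). Rxra, the partner receptor of PPAR-alpha, fell by 0.81 (SE 0.07). Ppargc1a, a coactivator of PPAR-alpha and of the estrogen-related receptors, read 11.47, 12.06 and 12.02 in transgenic liver, against 8.56, 9.15 and 8.77 in wild-type liver, and rose by 3.02 (SE 0.19, limma adjusted p = 2.94e-05). Esrra, an estrogen-related receptor gene, rose by 0.82 (SE 0.11). Of 15 regulators measured among 17 listed, 3 rose, 7 fell and 5 did not pass, whereas 6 rose and 2 fell with scaling to the hybridisation controls. As deposited, 19.1% of all genes were higher and 19.5% lower.

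A list of other PPAR-alpha targets, which leaves out those counted with the oxidation genes below, had more genes higher than lower. Of 17 measured among 20 listed, 9 rose, 3 fell and 5 did not pass, with a median difference of 0.46. Among all genes, 19.1% were higher and 19.5% lower. With scaling to the hybridisation controls 12 rose and 1 fell. Cyp4a12a, a fatty acid hydroxylase, read 8.69, 7.23 and 8.03 in transgenic liver, against 4.42, 3.93 and 3.95 in wild-type liver, and rose by 3.88 (SE 0.32, limma adjusted p = 9.03e-05). Its expression in adult mice is biased to males, the array with the male pattern was the highest, and probes may bind close Cyp4a12 relatives. Cidec, a lipid droplet protein, rose by 2.62 (SE 0.14). Mgll, the monoacylglycerol lipase, fell by 1.39 (SE 0.13) and the hydroxylase gene Cyp4a14 fell by 0.42 (SE 0.08). On the deposited scale, some known targets counted with the oxidation genes, picked as examples rather than by a rule, did not rise. Abcd2, Pex11a, Acaa1b, Ech1 and Slc25a20 fell by 1.73, 0.66, 0.59, 0.39 and 0.36, and Ehhadh (0.08) and Cpt1a (-0.17) did not pass. With arrays scaled to the hybridisation controls these differences were, in the same order, -1.36, -0.29, -0.22, -0.02, 0.01, 0.45 and 0.21. Acot1 at 3.66 thus stood beside targets that differed in both directions.

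Peroxisomal oxidation genes, which share their compartment with Acot3, Acot4 and Acot8, fell or did not pass. Among all genes, 19.5% were lower and 19.1% higher. Of 20 measured among 22 listed, 13 fell, 0 rose and 7 did not pass (limma; 14 lower and 0 higher at an unadjusted p under 0.05), with a median difference of -0.37. Abcd2, a transporter of very long-chain acyl-CoA, fell by 1.73 (SE 0.09), Pecr, a trans-2-enoyl-CoA reductase, fell by 1.51 (SE 0.09), Hacl1, an enzyme of alpha-oxidation, fell by 1.43 (SE 0.09) and Acox2, a branched-chain acyl-CoA oxidase, fell by 1.06 (SE 0.07). With scaling to the hybridisation controls 6 fell and 3 rose. Mitochondrial oxidation genes, in the compartment of Acot2, Acot9 and Acot13, fell for 6 of 20 measured among 21 listed, with 0 higher and 14 not passed (limma; 8 lower and 1 higher at an unadjusted p under 0.05) and a median of -0.17. The thiolase gene Acaa2 fell by 0.72 (SE 0.08), the hydratase gene Echs1 fell by 0.68 (SE 0.07), the carnitine carrier gene Slc25a20 fell by 0.36 (SE 0.06) and the dehydrogenase gene Hadh fell by 0.34 (SE 0.07). Without wild-type replicate 1, 1 gene was higher, and with scaling to the hybridisation controls 6 were higher and 2 lower.

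**Figure D4:**
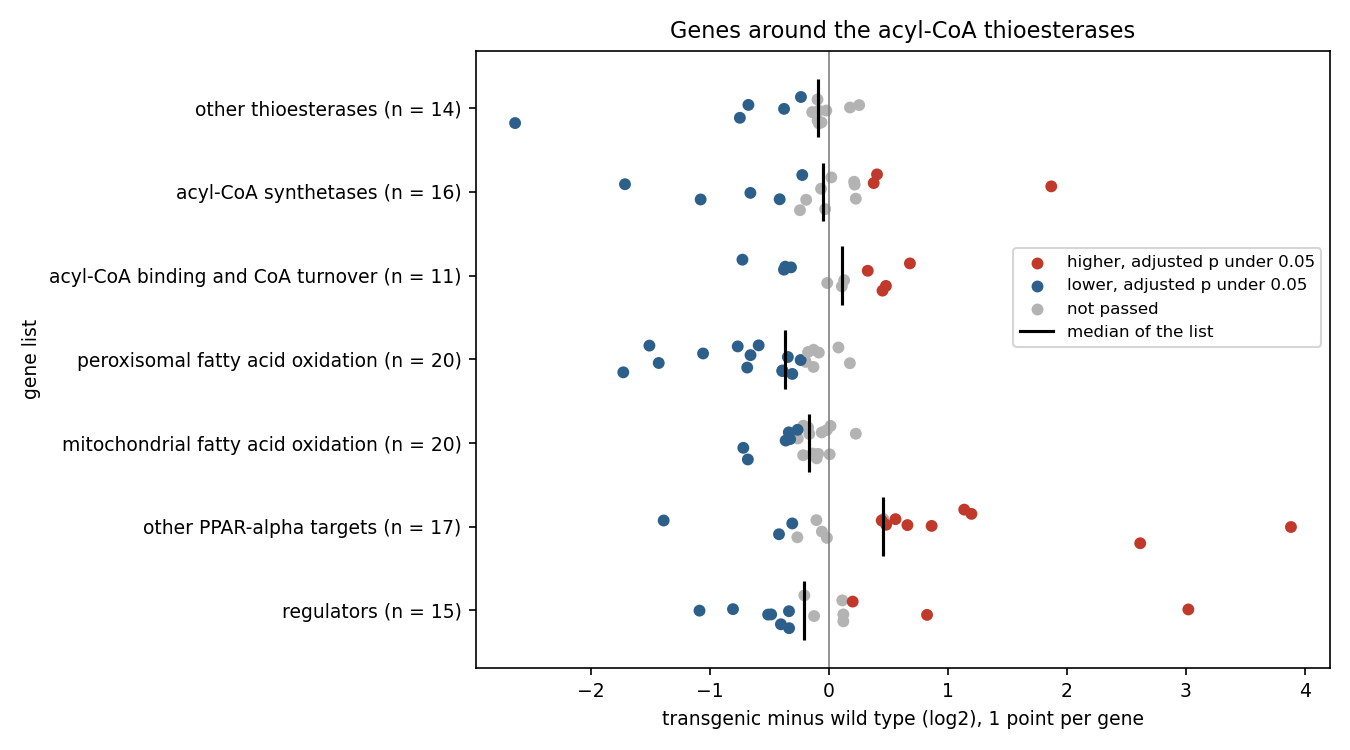
Difference between transgenic and wild-type liver (horizontal axis, log2) for each measured gene of 7 lists around the acyl-CoA thioesterases (1 point per gene, the brightest probe set; vertical jitter only separates points; black bars are list medians). Points are red where higher, blue where lower and grey where the adjusted p is not under 0.05; the peroxisomal list has 13 blue and 0 red points, and the list of other PPAR-alpha targets has 9 red and 3 blue.

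The genes whose profile over the 6 arrays lay closest to that of Acot1 were Mtmr7, Bex2, Plscr2, Cyp4a12a and Ubd. Their Euclidean distances from Acot1, after each profile was centred on its own mean, were 0.62, 0.73, 0.73, 0.75 and 0.77 on the log2 scale. For the brighter Acot12 probe set, the closest were Cxcl12, Sdc2, Cyp2d13, Ahr and Serpinf1, at distances of 0.14, 0.17, 0.19, 0.19 and 0.20. Distances from Acot1 were larger than those from Acot12, and the transgenic arrays of Acot1 also had the larger SD (0.34 against 0.09). By this measure, genes with a like group difference lie close, so these lists largely restate that difference. It was 3.19 to 3.88 for the genes closest to Acot1 and -1.38 to -1.27 for those closest to Acot12.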

How the data were processed

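Liver RNA was extracted with Trizol and an RNeasy kit, and biotin-labelled cRNA was hybridised to Affymetrix arrays, per the labels' protocols. The authors deposited log2 expression values per probe set made with affy and RMA, per the submitters' processing notes, with versions not given in the sources used here; filters are not given either. The table held 22690 probe sets, 64 of them array controls, with 0 missing values and no detection calls. RMA makes arrays nearly alike in distribution, so a change in total RNA cannot be seen, and the number of arrays limits the precision. Platform annotation gave 20380 probe sets 1 gene, 691 several and 1555 none, and 20351 symbols matched a RefSeq gene table through Entrez identifiers.

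Groups came from the titles, which call the arrays biological replicates. All 22626 probe sets other than controls were fitted with limma 3.58.1 (lmFit and eBayes on group alone, R 4.3.3). Adjusted p-values are Benjamini-Hochberg over all of them, with a threshold of 0.05. A list counted each gene once, by its brightest probe set. The code was tested on simulated data. Tables used Python 3.11.15, pandas 2.3.3 and matplotlib 3.10.9. With 3 arrays a group, exact permutation p-values have a floor of 0.1, and no such test was run. The members and lists were chosen with earlier results of these data known. The named genes were every member, Tfeb, Ppara, Ppargc1a, up to 4 genes past the threshold in each list by size of change, taking at most 2 of each direction before filling up, and the 5 genes closest to the members with the largest rise and fall. Sex-linked, marker and neighbouring genes were named as checks of the arrays and to complete the chromosomal row. Ppargc1b, Pex11a, Acaa1b, Ech1, Ehhadh and Cpt1a were named outside the rule for the lists. List members without a probe set of their own were not analysed here. Alternatives were leaving out each array, a replicate block, median centring, quantile normalization again, scaling to the bacterial controls, leaving out the 40% dimmest probe sets, trended and robust variance moderation, weighting of arrays, 1 probe set or the mean of probe sets for each gene, and leaving out probe sets with a cross-hybridisation suffix.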

Additional observations from a re-analysis of the deposited data

How the results depend on the processing

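The 3 higher and 5 lower member probe sets kept their direction and side of the threshold when any array was left out, with median centring, quantile normalization again, trend and robust options and array weights. They also did so with the replicate number as a block, where 3 were higher and 5 lower. Deviations of same-numbered arrays correlated at -0.10, -0.02 and 0.05, within the -0.13 to 0.11 of differently numbered arrays. No pairing of the animals by number was thus seen. It is not excluded, since deviations within a group of 3 arrays depend on each other. Without probe sets of cross-hybridisation suffix, 3 were higher and 4 lower, since Acot3 has no other. Leaving out the 40% dimmest probe sets also gave 3 higher and 4 lower, since it removed the dimmer Acot4 set 1422077_at. With 1 probe set a gene, 3 members were higher and 3 lower, and over all genes 2467 were higher and 2523 lower when only these probe sets were fitted and adjusted (2372 and 2415 of the same probe sets with the fit and adjustment over all probe sets). These counts cover 12393 probe sets and cannot be set against the 4087 and 3919 called over all 22626. Scaling to the hybridisation controls gave 12963 higher and 945 lower of all probe sets, against 4087 and 3919 as deposited, and 6 higher and 3 lower among members, with Acot8 reversed at 0.35, and Acot7 (0.47) and Acot13 (0.43) newly past the threshold. The cause was not tested. The same scaling gave 6 higher and 3 lower other thioesterases and 9 and 3 acyl-CoA synthetases. It gave 7 and 1 genes of acyl-CoA binding and CoA turnover, 3 and 6 peroxisomal genes and 6 and 2 mitochondrial genes. Regulators had 6 higher and 2 lower, and other PPAR-alpha targets 12 higher and 1 lower. The replicate block gave 3 lower synthetases and 2 lower genes of CoA turnover, and it changed no other count by over 1.5 times. Array weights, trend and robust options, and leaving out the 40% dimmest each gave 1 higher mitochondrial gene. With an array left out, all probe sets numbered 3017 to 3874 higher and 2808 to 3722 lower, member sets 3 and 5 throughout, other thioesterases 0 to 1 higher, synthetases 1 to 3 higher and 3 to 4 lower, lower genes of CoA turnover 2 to 4, and higher mitochondrial genes 0 to 1.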

Other observations

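Acyl-CoA synthetases, which make the substrates of the thioesterases, moved in both directions. Of 16 measured among 23 listed, 3 rose, 5 fell and 8 did not pass, with a median difference of -0.05. Over all 12393 genes with 1 probe set each, 19.1% were higher, 19.5% lower and the median was -0.04. Acss1, a mitochondrial acetyl-CoA synthetase, read 7.99, 8.42 and 8.37 in transgenic liver, against 6.58, 6.15 and 6.44 in wild-type liver, and rose by 1.87 (SE 0.15, limma adjusted p = 6.73e-05) on 2 of its 3 probe sets. Acsm3, a medium-chain synthetase, rose by 0.40 (SE 0.13), while Slc27a5, a bile acid and very long-chain acyl-CoA synthetase, fell by 1.71 (SE 0.10) and the medium-chain synthetase gene Acsm1 fell by 1.08 (SE 0.14). Without transgenic replicate 3, 1 synthetase rose, and without transgenic replicate 2 or wild-type replicate 2, 3 fell.

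Genes of acyl-CoA binding and CoA turnover also split, with 4 of 11 measured (17 listed) higher, 4 lower and 3 not passed, and a median of 0.11. The shares over all genes were 19.1% higher and 19.5% lower. Nudt19, a peroxisomal hydrolase that degrades CoA, rose by 0.68 (SE 0.14) and the mitochondrial relative Nudt8 rose by 0.48 (SE 0.10). Pank1, a kinase of the first step of CoA synthesis, fell by 0.73 (SE 0.08) and the acyl-CoA binding gene Acbd6 fell by 0.38 (SE 0.08), each on 1 of 2 probe sets. Without transgenic replicate 1, transgenic replicate 2 or wild-type replicate 1, 2 of these genes fell.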
